A study of Mus musculus with 12 samples.

Results

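Loss of Lhx1 from the epiblast was examined in the anterior part of the mouse embryo, the region that forms the head. The 6 arrays whose label gives the anterior region were used out of 12 in the series: 3 of Lhx1epiCKO embryos and 3 of controls, with no selection by measured values. The other 6 arrays hold the posterior parts. Embryos were collected at E7.75, between the early bud and the early head-fold stage, and each sample was RNA from a pool of 5 dissected parts. Lhx1epiCKO embryos were Lhx1-/flox and Meox2+/Cre, so that Cre made from the Meox2 locus, which acts in the epiblast, removed their remaining Lhx1 allele. Control embryos were Lhx1+/flox and Meox2+/Cre. Both groups thus carried the Cre allele at Meox2 and a floxed Lhx1 allele, and neither effect can be read from this comparison. Control epiblast kept 1 functional Lhx1 allele after recombination, while tissue outside the epiblast also differed between the groups by the Lhx1- allele. The labels call the 3 samples of a group biological replicates and do not say whether samples with the same number shared a litter or a day, nor give the sex of the embryos.

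LHX1, a homeobox protein with LIM domains, regulates transcription in the anterior mesendoderm, the tissue that underlies and signals to the future head. Head tissue forms where WNT activity is low, and anterior mesendoderm and visceral endoderm release secreted antagonists that keep it low. At the posterior end, WNT ligands from the primitive streak keep up the Cdx, T and Tbx6 genes and, with retinoic acid and FGF, the Hox genes that mark the trunk and hindbrain. In a bulk sample, fewer cells of a type and less RNA per cell cannot be told apart.

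In the anterior part, the genes called lower in Lhx1epiCKO included some of the head organiser and the forebrain, such as Cer1, Shh, Otx2 and Foxd4. Those called higher included some WNT ligands, WNT targets, Hox genes and trunk mesoderm genes, such as Wnt8a, Axin2, Hoxb1 and Tbx6. In each of these gene lists most measured members did not pass the test. Of 15961 probes detected on at least 3 of the 6 arrays, 57 (0.357%) passed a threshold of 0.05 on the Benjamini-Hochberg adjusted p of limma and are named called probes here. They stand for 49 genes, 30 higher and 19 lower in Lhx1epiCKO. By probe, 35 (0.219%) were called higher and 22 (0.138%) were called lower. Called rises ran from 0.45 to 1.55 and called falls from -0.41 to -1.73 on the log2 scale, with adjusted p from 0.00219 to 0.0497. Every called probe had control and Lhx1epiCKO arrays that did not overlap, which was true of 12.4% of all kept probes. With 3 arrays per group the test itself favours such probes, so the lack of overlap, here and below, is no separate support. The bulk of the transcriptome stayed near 0: the median difference was 0.0002, and the 5th and 95th percentiles were -0.19 and 0.18. At an unadjusted p under 0.05, 1033 probes (6.47%) were found, 461 higher and 572 lower. A difference above 1 was seen for 15 probes, 14 of them called, and one below -1 for 13 probes, 11 of them called. In fits that left out each array in turn, 13 of the 49 genes kept a called probe in all 6: Lhx1, Cer1, Otx2, Foxd4, Sfrp1, Shisa2, Fzd5, Fzd10, Wnt8a, Cdx1, Hoxb1, Hbb-bh1 and Rtl8c. Each of the other genes lost its call in at least 1 of these fits, with adjusted p of up to 0.279, and the fewest calls were left without control 2 (23) and without Lhx1epiCKO 1 (25). A fit of all 12 arrays, whose spread includes that of the posterior arrays, called 12 anterior probes. Of the 13 genes, Foxd4, Sfrp1, Shisa2, Fzd5, Fzd10 and Wnt8a kept a call there, while Rtl8c (adjusted p = 0.0993), Cdx1 (0.132), Hoxb1 (0.136), Cer1 (0.163), Lhx1 (0.344), Otx2 (0.547) and Hbb-bh1 (0.999953) did not, all in limma.

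**Figure D1:**
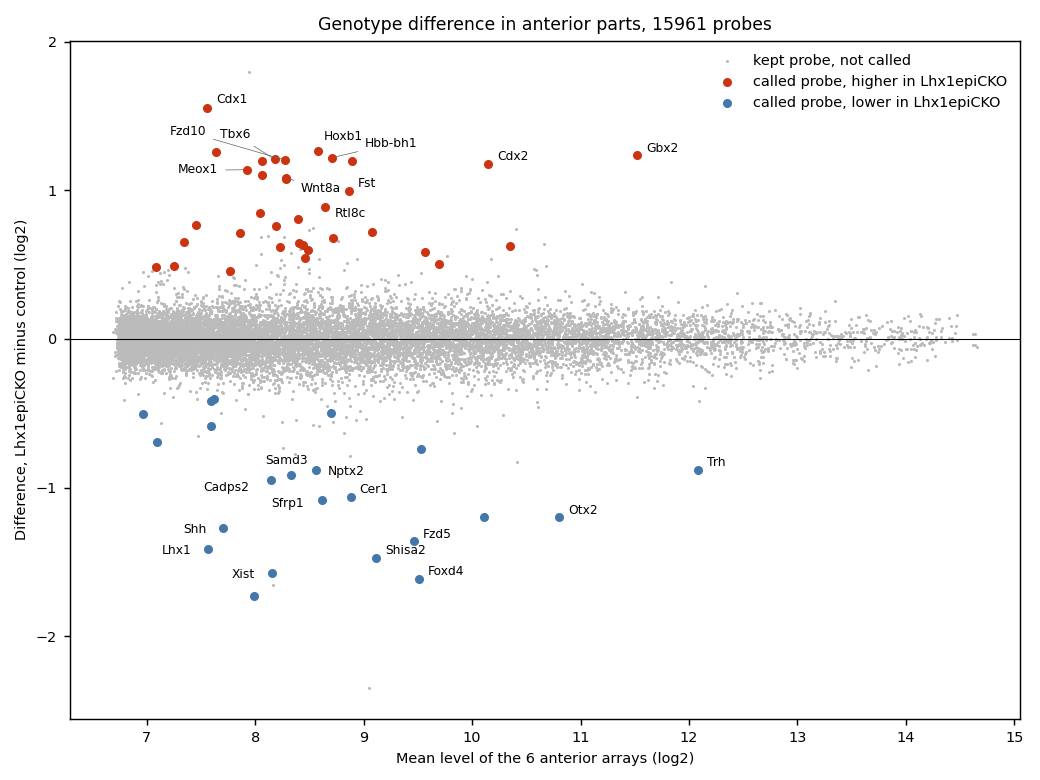
Difference between Lhx1epiCKO and control (y axis, log2) against the mean level of the 6 anterior arrays (x axis, log2), 1 point per probe kept. Of 15961 probes, 35 called higher (red) and 22 called lower (blue) lie outside a band around 0 that holds most probes, and called genes with an absolute difference of at least 0.85 are named at their probe of smallest p, with some left unnamed.

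Between 15737 and 16238 probes were detected on the control arrays and between 15416 and 16091 on the Lhx1epiCKO arrays. Per anterior array, 0 to 12 probes of the whole table departed by over 1 on the log2 scale from the group's other 2 arrays, averaged, with the highest number on Lhx1epiCKO 3. Among the defining genes of anterior tissue, Otx2, Sox2, Foxd4 and Zic2 were detected on all 6 arrays and Hesx1 on the 3 controls only, while Six3, a forebrain homeobox gene, was not above background on any.

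Lhx1 itself read 8.13, 8.25 and 8.44 on the 3 control arrays and 6.84, 6.65 and 7.09 on the 3 Lhx1epiCKO arrays (log2 levels). All Lhx1epiCKO values lay below all control values, and 2 of the 3 were still above background. The difference was -1.41 ± 0.12 (SE, n = 3 per group), a 2.66-fold fall with adjusted p = 0.00219 in limma. Here and below, the SE of a difference is limma's moderated SE, which also draws on the spread of all kept probes. The sources used here do not say whether the probe lies inside the floxed part of the gene, so a lower value does not measure how complete the deletion was. Lhx1 lies on chromosome 11 (chr11:84517975-84525534, GRCm38.p6). Of 65 genes measured within 5 Mb of it, Lhx1 alone was called, and the others differed by -0.23 to 0.22 with a median of 0.0021.

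Calls in the anterior mesendoderm and prechordal plate list were all falls. Of 17 measured members of this list, 4 were called lower (Lhx1, Cer1, Otx2 and Shh) and 0 higher, and 13 did not pass. Lhx1 is the deleted gene, so its fall was set by the design. Otx2 is also counted in the neural plate, definitive endoderm and epiblast lists. The median difference, with Lhx1 included, was -0.34, against -0.0012 over all 10728 genes taken by their brightest probe. Of these 10728 genes, 29 were called higher and 18 lower, and 49.6% of differences were above 0. Cer1, a secreted antagonist of WNT, NODAL and BMP signals, read 9.45, 9.45 and 9.34 in controls and 8.36, 8.18 and 8.50 in Lhx1epiCKO. The nearest arrays of the groups were 0.83 apart, and Cer1 fell by 1.06 ± 0.09 (adjusted p = 0.00219 in limma). A second, dimmer Cer1 probe fell by 0.52 without passing (adjusted p = 0.224 in limma). Shh, the ligand released by the midline, read 8.77, 7.98 and 8.25 in controls and 7.19, 7.11 and 6.89 in Lhx1epiCKO. Control 1 was the highest and the groups did not overlap. Shh fell by 1.27 ± 0.17 (adjusted p = 0.0134 in limma), and this call was lost without Lhx1epiCKO 1 or 3, with an adjusted p of up to 0.0593. Other members did not pass the test: Fzd8, a WNT receptor, differed by -0.37 (adjusted p = 0.0833), Hhex by -0.36 (0.118) and Foxa2 by -0.34 (0.345), all in limma. The summed linear level of the 17 members was 6888 to 7530 in controls and 4322 to 5035 in Lhx1epiCKO. This sum includes the 4 called genes and gives most weight to bright members such as Otx2, so it does not describe the uncalled members.

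Foxd4 and Otx2 were the called genes of the anterior neural plate, which becomes the forebrain. Among 15 measured members these 2 were called lower and 0 higher, 13 did not pass, with a median of -0.27, and 12 further members on the array were not above background. Foxd4, a forkhead factor of early neural tissue, read 10.61, 10.19 and 10.15 in controls and 8.92, 8.76 and 8.43 in Lhx1epiCKO. It fell 3.06-fold (-1.61 ± 0.15, adjusted p = 0.0022 in limma), the largest fall among probes of genes other than Xist. Otx2, the homeobox gene of forebrain and midbrain, read 11.20, 11.40 and 11.60 in controls and 10.25, 9.94 and 10.41 in Lhx1epiCKO. All 3 Lhx1epiCKO arrays stood below the lowest control, with a difference of -1.20 ± 0.13 (adjusted p = 0.00629 in limma). In posterior control parts the mean level of Otx2 was 8.48 and that of Foxd4 8.09. Pou3f1 differed by -0.63 (adjusted p = 0.0802) and Sox2 by -0.36 (0.139) in the same fit. Hesx1, a forebrain homeobox gene, read 7.14, 6.87 and 6.98 in controls and was not above background on any Lhx1epiCKO array, which gives a level at least 1.15-fold lower (adjusted p = 0.118 in limma).

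**Figure D2:**
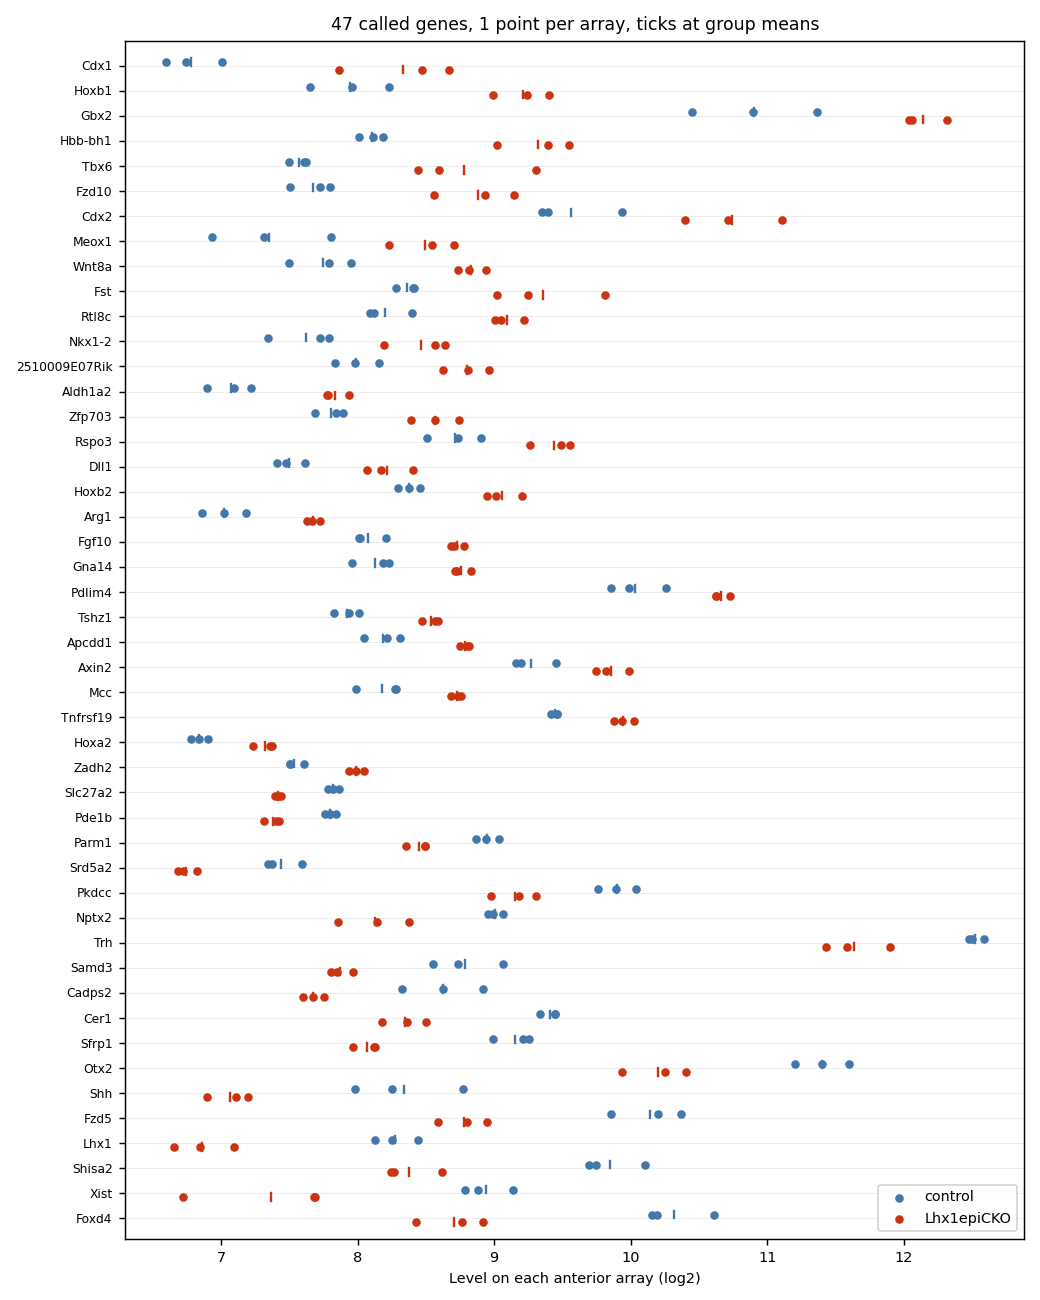
Level of 47 of the 49 called genes (log2, x axis) on the 3 control and the 3 Lhx1epiCKO anterior arrays, at the probe of smallest p, with a tick at each group mean. Genes are ordered by their difference, from Cdx1 (1.55) down to Foxd4 (-1.61), and the groups of no gene overlap.

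Among 15 measured WNT antagonists, 3 were called lower (Cer1, Shisa2 and Sfrp1) and 0 higher, with a median difference of -0.14. Apcdd1 and Axin2, which also restrain WNT signals and stand in the list of WNT targets, were called higher. Shisa2, which holds WNT and FGF receptors back inside the cell, read 10.11, 9.75 and 9.70 in controls and 8.62, 8.26 and 8.25 in Lhx1epiCKO. It fell by 1.47 ± 0.13 (adjusted p = 0.00219 in limma). Sfrp1, a secreted protein that binds WNT, read 11.03, 10.64 and 10.44 in controls and 9.53, 9.42 and 9.58 in Lhx1epiCKO at its brighter probe. Both called Sfrp1 probes fell, by 1.19 ± 0.13 and 1.08 ± 0.09 on the log2 scale (adjusted p = 0.00629 and 0.00219 in limma). Dkk1, another secreted antagonist, differed by -0.33 (adjusted p = 0.262), and Notum, a WNT-inactivating enzyme induced by WNT, by 0.37 (0.139), also in limma.

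Over 15 measured WNT receptors and coreceptors, Fzd5 was called lower and Fzd10 higher, and the median difference was 0.02. Fzd5 read 10.37, 10.20 and 9.85 in controls and 8.80, 8.59 and 8.95 in Lhx1epiCKO, a fall of 1.36 ± 0.13 on the log2 scale (adjusted p = 0.00395 in limma). Fzd10 read 7.72, 7.51 and 7.80 in controls and 8.56, 8.93 and 9.14 in Lhx1epiCKO, a rise of 1.20 ± 0.14 (adjusted p = 0.00754 in limma). At these probes the Fzd5 arrays of the groups were 0.91 apart at their nearest and those of Fzd10 0.76. A dimmer Fzd5 probe differed by -0.14, with groups that overlapped (adjusted p = 0.852 in limma). In posterior control parts the mean level was 8.26 for Fzd5 and 10.53 for Fzd10.

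WNT ligands and genes that WNT signals switch on were among the called rises. Of 11 measured ligands and R-spondins, Wnt8a and Rspo3 were called higher and none lower, and 9 of 11 differences were above 0 with a median of 0.17. Wnt8a, a ligand of the primitive streak, read 7.95, 7.50 and 7.79 in controls and 8.73, 8.94 and 8.82 in Lhx1epiCKO, a rise of 1.08 ± 0.11 (adjusted p = 0.00518 in limma). Rspo3, which amplifies WNT signals, read 8.51, 8.74 and 8.90 in controls and 9.26, 9.49 and 9.55 in Lhx1epiCKO, a rise of 0.72 ± 0.11 (adjusted p = 0.0339). No array of either gene crossed into the other group. Wnt3a had the largest difference of any ligand, 1.80 ± 0.36, and did not pass (adjusted p = 0.111 in limma): it read 7.15, 6.83 and 7.15 in controls and 8.12, 8.49 and 9.92 in Lhx1epiCKO. Its Lhx1epiCKO arrays were all above the controls, with the 3rd far above the other 2.

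Among 19 measured WNT feedback and target genes 5 were called higher (Cdx1, Apcdd1, Cdx2, Fst and Axin2) and 0 lower, with 15 differences above 0 and a median of 0.37. Over all 10728 genes at their brightest probe, 47 were called and 49.6% of differences were above 0. Axin2, which feeds back to limit WNT signals and is a common readout of them, read 9.19, 9.16 and 9.46 in controls and 9.82, 9.75 and 9.99 in Lhx1epiCKO. Its rise was 0.58 ± 0.10 with adjusted p = 0.0497, the highest of all calls, and it was called in 1 of the 6 fits that left out an array. Cdx1, a caudal homeobox gene, showed the largest of the called rises (1.55 ± 0.18, 2.93-fold, adjusted p = 0.00838 in limma). It read 7.004, 6.60 and 6.74 in controls, where 1 of 3 arrays was above background, and 7.87, 8.47 and 8.67 in Lhx1epiCKO. Cdx2 read 9.35, 9.39 and 9.94 in controls and 10.40, 10.71 and 11.11 in Lhx1epiCKO, a rise of 1.18 ± 0.19 (adjusted p = 0.0362). In posterior controls the mean level of Cdx1 was 11.07 and that of Cdx2 12.68, and every anterior Lhx1epiCKO array lay below these. Fst, a secreted activin-binding protein, rose by 1.00 ± 0.17 (0.0439), and Apcdd1, a membrane inhibitor of WNT, by 0.60 ± 0.08 (0.0153).

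Genes of the primitive streak and of presomitic mesoderm were also among the called rises. Of 28 measured streak and nascent mesoderm genes, 7 were called higher and Lhx1 alone lower. The list had 23 differences above 0 and a median of 0.31. The 7 were Wnt8a, Cdx1, Dll1, Tbx6, Cdx2, Fst and Nkx1-2. Wnt8a, Cdx1, Cdx2 and Fst are also counted in the WNT lists above, and Dll1 and Tbx6 in the presomitic list. Among 15 measured presomitic and somitic genes 5 were called higher (Aldh1a2, Dll1, Tbx6, Rspo3 and Meox1) and 0 lower, with a median of 0.22. Rspo3 is also counted among the WNT ligands, so these lists are not separate sets of genes. Tbx6, the T-box factor that gives cells a presomitic fate, read 7.49, 7.60 and 7.62 in controls and 8.44, 8.60 and 9.31 in Lhx1epiCKO. It rose by 1.21 ± 0.18 at this probe (adjusted p = 0.0283 in limma) and by 0.42 at a dimmer one (0.286). Lhx1epiCKO 3 was the highest at both. Dll1, a Notch ligand of that tissue, read 7.41, 7.61 and 7.47 in controls and 8.07, 8.17 and 8.40 in Lhx1epiCKO. Dll1 rose by 0.71 ± 0.10 (0.0153), Meox1, a somite homeobox gene, by 1.14 ± 0.20 (0.0489), and Nkx1-2, a homeobox gene of the caudal epiblast, by 0.85 ± 0.14 (0.0447).

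Streak genes were spread unevenly over the Lhx1epiCKO arrays. The summed linear level of the 28 members was 11654, 11850 and 12400 on the controls and 13652, 15061 and 20208 on Lhx1epiCKO 1, 2 and 3. T, the founding T-box gene of the streak, read 9.94, 9.95 and 10.22 in controls and 10.33, 10.65 and 11.35 in Lhx1epiCKO, and did not pass (0.74 ± 0.21, adjusted p = 0.432 in limma). For Mixl1 and Evx1, streak homeobox genes, Lhx1epiCKO 1 and 2 lay at or near the control range. Mixl1 read 6.83, 6.92 and 8.09 and Evx1 8.74, 8.86 and 10.03 on the 3 Lhx1epiCKO arrays, with controls at 6.58 to 7.03 and 8.47 to 8.81. Lhx1epiCKO 3 thus stood apart for these posterior markers, and whether its dissection held more posterior tissue was not tested. Without Lhx1epiCKO 3, 39 probes were called, 19 higher and 20 lower, and 32 of them were among the 57. Of the rises above, Wnt8a, Fzd10, Tbx6, Dll1 and Aldh1a2 kept a call without that array, and Cdx2, Rspo3, Axin2, Apcdd1, Meox1 and Nkx1-2 did not.

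**Figure D3:**
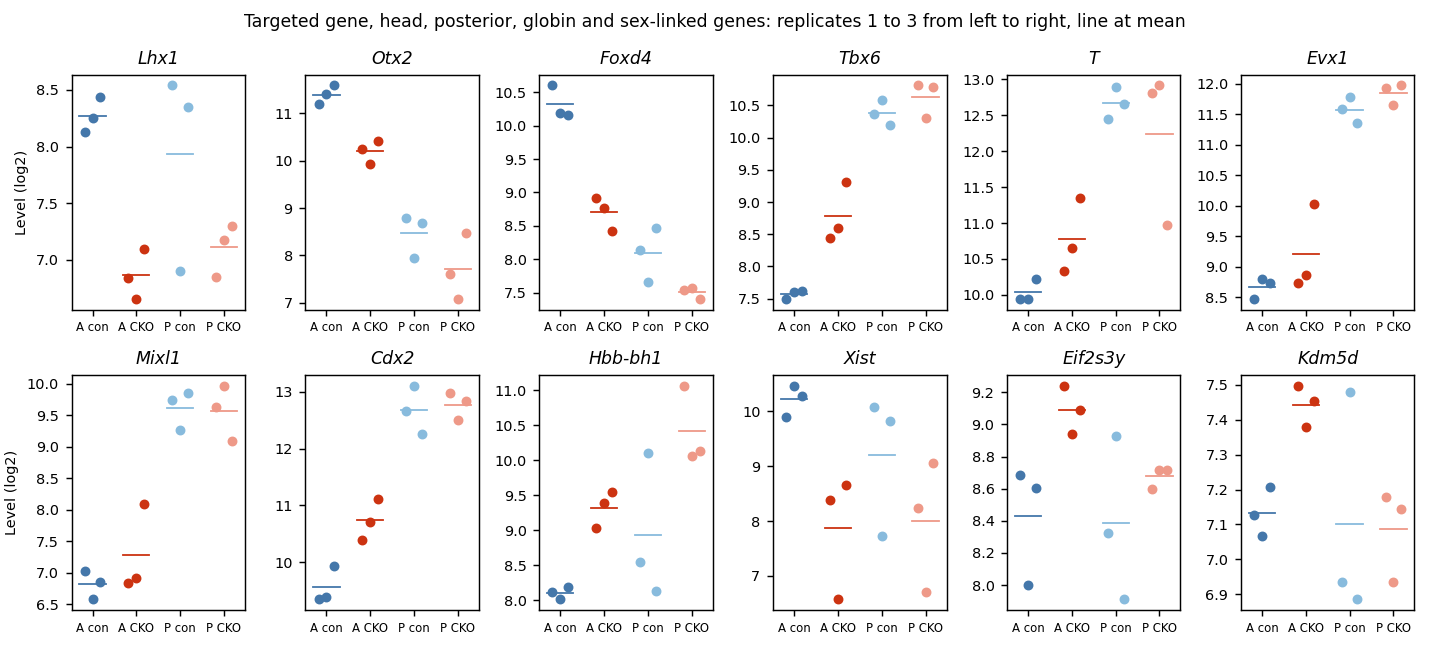
Level (log2, y axis) of 12 genes on all 12 arrays, with A for anterior, P for posterior, con for control and CKO for Lhx1epiCKO, and replicates 1 to 3 drawn from left to right with a line at the mean. Each gene is at its brightest probe. Lhx1epiCKO 3 is highest of the anterior arrays for T, Evx1, Mixl1 and Tbx6, and Otx2 and Foxd4 are lower on all 3 anterior Lhx1epiCKO arrays.

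Hox genes and Gbx2, counted here in a midbrain and hindbrain list, were also among the called rises. Of 14 measured midbrain and hindbrain genes, 4 were called higher, among them Hoxb2, Gbx2 and Hoxb1, and 0 lower, the median was 0.45, and Hoxa2 was called by a dimmer probe. Gbx2, a homeobox gene that sets the boundary with Otx2 between midbrain and hindbrain, read 11.36, 10.45 and 10.89 in controls and 12.04, 12.31 and 12.06 in Lhx1epiCKO. Its rise was 1.24 ± 0.19 (adjusted p = 0.0284 in limma), and it was called in 1 of 6 fits that left out an array. Hoxb1 read 8.23, 7.65 and 7.96 in controls and 8.99, 9.24 and 9.40 in Lhx1epiCKO, a rise of 1.26 ± 0.15 (adjusted p = 0.00754). No control array reached the lowest Lhx1epiCKO array for either gene. In posterior controls the mean level was 13.02 for Gbx2, 10.96 for Hoxb1 and 10.19 for Hoxb2, and every anterior Lhx1epiCKO array lay below these. Whether the rises of this list are separate from those of the streak and trunk lists was not tested.

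Of the 38 Hox genes on the array, 13 were above background, and those called came from the 3' ends of the A and B clusters. Hoxb2 rose by 0.68 ± 0.09 (adjusted p = 0.0132 in limma) and Hoxa2 by 0.48 ± 0.08 (0.0339). Over the 13 Hox genes 12 differences were above 0 and the median was 0.24. The next by p, Hoxb6, differed by 0.26 (adjusted p = 0.575). Fgf15 and Fgf8, FGF ligands of the midbrain and hindbrain, differed by 0.53 (0.0766) and 0.50 (0.623) and did not pass.

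Of 14 measured retinoic acid genes Aldh1a2 was called, with 7 differences above and 7 below 0. Aldh1a2, the enzyme that makes retinoic acid in the trunk mesoderm, read 7.22, 6.89 and 7.09 in controls and 7.77, 7.94 and 7.78 in Lhx1epiCKO, a rise of 0.76 ± 0.10 (adjusted p = 0.0114 in limma). Cyp26a1, the enzyme that breaks retinoic acid down, read 9.59, 9.07 and 9.13 in controls and 8.31, 8.46 and 8.66 in Lhx1epiCKO. Its groups did not overlap, and with a difference of -0.78 ± 0.14 and adjusted p = 0.0567 it lay just outside the threshold. Fgf10 was the 1 called gene among 17 of the FGF list (0.65 ± 0.08, adjusted p = 0.0114), and Dll1 the 1 among 14 of the Notch list. In the node and notochord list Shh was the 1 called of 17 measured, with a median of -0.09. Over the 11 measured genes of the hedgehog list, the ligand Shh itself was the 1 called, so none of its response genes was. The receptor component Smo differed by -0.11 (adjusted p = 0.899 in limma). In the NODAL (15 measured) and BMP (17 measured) lists 0 genes were called, with medians of 0.0085 and 0.09. The smallest adjusted p of the NODAL list was that of Nodal itself, 0.311, at a difference of 0.28 ± 0.07.

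Endoderm genes and genes of regulated secretion were among the falls. Trh, the precursor of thyrotropin-releasing hormone and a gene of early definitive endoderm, read 12.50, 12.58 and 12.48 in controls and 11.90, 11.43 and 11.58 in Lhx1epiCKO. It fell by 0.88 ± 0.11 (adjusted p = 0.0114 in limma) and was the brightest of all falls. With Cer1 and Otx2 it made 3 of 21 measured definitive endoderm genes called lower, at a list median of -0.08. Among 16 measured genes of secretory vesicles and neurons, Nptx2 and Cadps2 were called lower and 14 differences were below 0, with a median of -0.17. Nptx2, a secreted pentraxin, read 8.99, 8.95 and 9.07 in controls and 8.14, 7.86 and 8.38 in Lhx1epiCKO. Cadps2, which primes vesicles for release, had a mean level of 8.62 ± 0.29 (SD, n = 3) in controls and 7.68 ± 0.08 in Lhx1epiCKO, with no overlap. The fall was 0.88 ± 0.12 for Nptx2 (adjusted p = 0.0134) and 0.95 ± 0.13 for Cadps2 (0.015), and Cadps2 kept its call in 2 of 6 fits that left out an array.

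Epiblast and metabolic genes added single calls. Of 21 measured epiblast and pluripotency genes Otx2 alone was called, while 19 of 21 differences were below 0 with a median of -0.15. Srd5a2, a steroid 5-alpha-reductase, read 7.59, 7.38 and 7.35 in controls and 6.72, 6.68 and 6.82 in Lhx1epiCKO. It fell by 0.69 ± 0.09 (adjusted p = 0.0114 in limma), 1 of 18 steroid and lipid genes, and 1 of the 3 Lhx1epiCKO arrays was above background. In the list of LIM-domain partners Lhx1 was the 1 call among 12, and its cofactor Ldb1 differed by -0.17 (adjusted p = 0.73).

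Of the 49 called genes, 34 belonged to at least 1 of the 45 lists, some of them to several, and 15 to none. The lists were chosen with earlier results of these data known, so this share does not measure how the changes spread over functions. Falls outside the lists were Samd3 (-0.91 ± 0.12), the secreted kinase gene Pkdcc (-0.74 ± 0.10), Parm1 (-0.50 ± 0.08), Pde1b (-0.42 ± 0.07), which encodes a cyclic nucleotide phosphodiesterase, and the fatty acid transporter and acyl-CoA synthetase gene Slc27a2 (-0.41 ± 0.07). Rises outside the lists included Rtl8c (0.89 ± 0.10), 2510009E07Rik (0.81 ± 0.11), the zinc-finger gene Zfp703 (0.76 ± 0.10), the G protein gene Gna14 (0.63 ± 0.09) and the arginase gene Arg1. The 2 called Arg1 probes rose by 0.65 ± 0.09 and 1.10 ± 0.17 (adjusted p = 0.0153 and 0.0339 in limma). Just outside the threshold were 2700033N17Rik (0.48, adjusted p = 0.0501), Lbh (-0.49, 0.0564), a second probe of Hoxa2 (0.46, 0.0564) and a second probe of Fgf10 (0.58, 0.0565). For 24 called genes with several probes kept, all 53 probes went the same way and 32 of them were called.

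**Figure D4:**
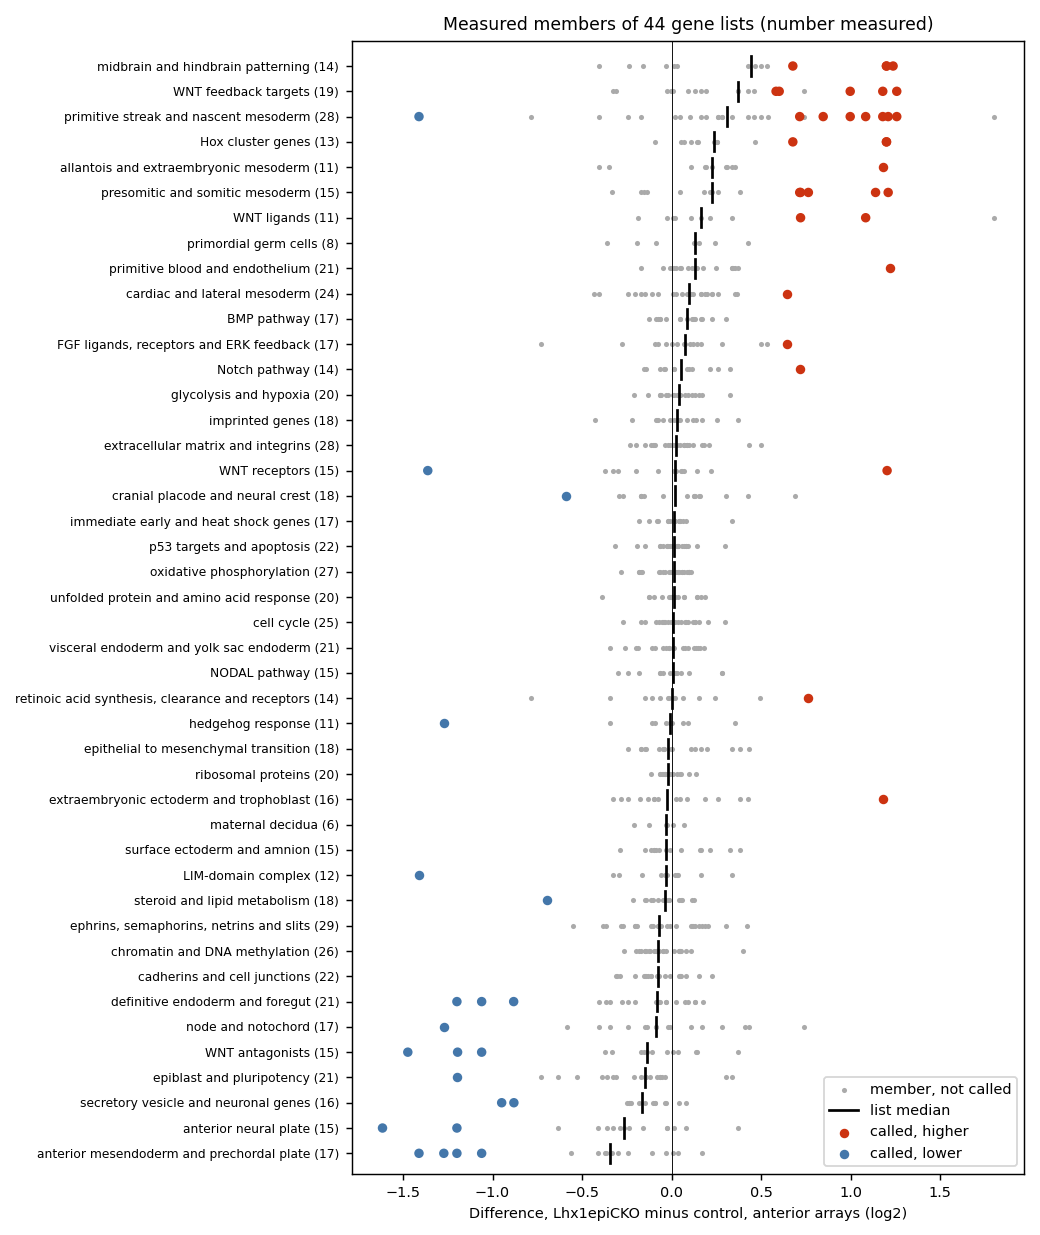
Differences between Lhx1epiCKO and control (x axis, log2) for the measured members of 44 gene lists (number measured in brackets), with red and blue points for called members and a black tick at each list median. Lists run from anterior mesendoderm and prechordal plate (median -0.34) at the bottom to midbrain and hindbrain patterning (0.45) at the top. Sex-linked genes are left out of the plot.

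No call was made in 19 of the 45 lists. Among lists of cell behaviour these were cadherins and cell junctions (22 measured), extracellular matrix and integrins (28), ephrins, semaphorins, netrins and slits (29) and epithelial to mesenchymal transition (18). Their members of smallest p were the protocadherin gene Pcdh7 (-0.30, adjusted p = 0.342), the fibronectin gene Fn1 (0.43, 0.398) and the guidance receptor gene Robo1 (-0.55 ± 0.10, 0.0584), all in limma. Lists of general cell state with 0 calls were glycolysis and hypoxia, oxidative phosphorylation, cell cycle, p53 targets and apoptosis, the unfolded protein and amino acid response, immediate early and heat shock genes, ribosomal proteins, chromatin and DNA methylation, and imprinted genes. Their medians ran from -0.08 for chromatin genes to 0.04 for glycolysis genes. The smallest adjusted p among the cell cycle and p53 lists was 0.596, for Cdkn1a, a cyclin-dependent kinase inhibitor (0.30 ± 0.10). The signalling and tissue lists with 0 calls, other than NODAL and BMP, were visceral endoderm (21 measured), maternal decidua (6), surface ectoderm and amnion (15) and primordial germ cells (8).

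Genes of other tissues that the dissection could hold gave the following levels. Hbb-bh1, an embryonic beta globin, read 8.11, 8.01 and 8.19 in controls and 9.02, 9.39 and 9.55 in Lhx1epiCKO, a rise of 1.22 ± 0.12 (adjusted p = 0.00437 in limma). The groups did not overlap, and in posterior parts the difference was 1.49 without passing the test. It was the 1 call among 21 measured blood and endothelium genes, 17 of which differed upward with a median of 0.13. Their summed linear level, with Hbb-bh1 included, was 6068 to 6633 in controls and 7176 to 7475 in Lhx1epiCKO. Tal1, a regulator of blood formation, differed by 0.34 (0.13), Gfi1b by 0.35 (0.295) and Nfe2 by 0.37 (0.444). Hbb-y, another embryonic globin, was above background on 0 control and 3 Lhx1epiCKO arrays (at least 1.12-fold higher). Etv2 and Kdr, early endothelial genes named after their values were seen, differed by -0.0004 and 0.02.

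Cdx2 was the 1 call among 11 allantois genes (median 0.22) and among 16 trophoblast genes (median -0.03). Summed levels, which include Cdx2 and thus its rise, were 6193 to 6866 in controls and 7899 to 8642 in Lhx1epiCKO for allantois genes. For trophoblast genes, likewise with Cdx2, they were 5141 to 6717 and 6572 to 7945. Of the cardiac and lateral mesoderm list, Fgf10 was the 1 call among 24 (median 0.10). The 21 visceral endoderm genes summed to 60846 to 68840 in controls and 65290 to 65842 in Lhx1epiCKO. The part of blood, allantois or trophoblast tissue in the rises was not tested.

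Sex-linked genes also differed between the groups. Xist, the RNA made from the inactive X chromosome of females, read 8.88, 9.14 and 8.79 in controls and 7.68, 6.72 and 7.69 in Lhx1epiCKO at its probe of smallest p, a fall of 1.57 ± 0.22 (adjusted p = 0.017 in limma). Lhx1epiCKO 2 was below background. A second called probe fell by 1.73, and others differed by -1.66 (0.0625) and -2.35 (0.0698). The Y-linked genes Eif2s3y (0.66, adjusted p = 0.258), Kdm5d (0.31, 0.258) and Uty (0.14, 0.852) were higher on average in Lhx1epiCKO without passing. Pools of the 2 groups thus differed in sex-linked transcripts. Sex makeup and genotype cannot be told apart in this comparison, for these genes or for the other calls. Of 362 X-linked genes other than Xist, 1 was called (Rtl8c), and the median difference was 0.01.

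TAATTA, a core that LIM homeodomain factors such as LHX1 bind, and CTTTGA, the core of TCF and LEF factors of the WNT pathway, were looked for in RefSeq promoters, 250 bases before to 50 after each gene start (GRCm38.p6). Of the 49 called genes 31 had an entry. TAATTA lay on either strand in 3 of 20 promoter windows of genes called lower, in 2 of 18 of genes called higher and in 5.29% of all 32851 windows. CTTTGA lay in 1 of 20, 1 of 18 and 16% of windows. Several windows can belong to 1 gene, and 2 of the 3 windows of falls with TAATTA were of Otx2. By gene, TAATTA lay in 2 of 15 called lower, 2 of 16 called higher and 1655 of all 27025. TAATTA reads the same on both strands. Shown are the windows of Cer1 and Otx2, the falls that hold TAATTA, and of Tbx6, with the motif in capitals. The windows lie at chr4:82885102-82885401 (minus strand) for Cer1, at chr14:48665060-48665359 and chr14:48667595-48667894 (both minus) for 2 starts of Otx2 and at chr7:126781233-126781532 (plus) for Tbx6.
Cer1: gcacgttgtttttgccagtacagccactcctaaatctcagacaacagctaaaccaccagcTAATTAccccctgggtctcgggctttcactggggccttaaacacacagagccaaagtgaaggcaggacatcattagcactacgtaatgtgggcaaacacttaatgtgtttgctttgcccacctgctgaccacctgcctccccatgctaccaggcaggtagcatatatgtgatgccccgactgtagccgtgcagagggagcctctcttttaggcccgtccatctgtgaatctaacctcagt
Otx2 first window: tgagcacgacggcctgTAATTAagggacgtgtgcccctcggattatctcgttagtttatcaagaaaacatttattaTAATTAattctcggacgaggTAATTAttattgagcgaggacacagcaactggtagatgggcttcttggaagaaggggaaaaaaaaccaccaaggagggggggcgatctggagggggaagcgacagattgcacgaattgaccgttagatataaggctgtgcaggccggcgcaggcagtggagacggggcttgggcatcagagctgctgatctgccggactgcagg
Otx2 second window: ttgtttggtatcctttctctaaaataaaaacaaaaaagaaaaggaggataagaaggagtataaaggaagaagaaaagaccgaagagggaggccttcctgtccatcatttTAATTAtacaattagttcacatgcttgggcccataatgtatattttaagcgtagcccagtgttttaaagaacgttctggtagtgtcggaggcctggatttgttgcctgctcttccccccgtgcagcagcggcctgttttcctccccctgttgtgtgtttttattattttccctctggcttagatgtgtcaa
Tbx6: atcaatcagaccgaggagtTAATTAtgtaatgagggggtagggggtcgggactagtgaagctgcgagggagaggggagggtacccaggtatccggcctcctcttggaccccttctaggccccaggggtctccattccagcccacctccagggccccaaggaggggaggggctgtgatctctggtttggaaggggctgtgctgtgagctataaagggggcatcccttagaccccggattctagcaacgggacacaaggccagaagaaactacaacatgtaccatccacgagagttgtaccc
The first Otx2 window holds 3 copies and each of the others 1. A match describes these letters only and is not a measured binding site.

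On the posterior arrays, which took no part in the anterior test, the called probes varied in direction and size. Of 14377 probes kept on the 6 posterior arrays, 0 (0%) were called, with 393 at an unadjusted p under 0.05 and a lowest adjusted p of 0.963 in limma. The 3 posterior Lhx1epiCKO arrays differed among themselves, with 258, 279 and 785 probes departing in the same way, against 7 to 35 on posterior controls. Of the 35 probes called higher in anterior parts 15 had a posterior difference above 0, and their median was -0.04 there and 0.81 in anterior parts. Of the 20 called lower and kept in posterior parts, 15 were below 0, with a median of -0.13. In anterior parts the median over all 22 called lower was -1.005. The anterior medians are of probes picked by their anterior difference, so the 2 regions' medians are not on an equal footing. Of the genes called lower, Otx2 differed by -0.76 and Foxd4 by -0.59 in posterior parts, and Cer1 by 0.13 and Shisa2 by 0.10. None of these passed there. Lhx1 read 8.54, 6.90 and 8.35 in posterior controls and 6.85, 7.18 and 7.30 in posterior Lhx1epiCKO, so the groups overlapped through control 2. Over all kept posterior probes 51.8% of differences were above 0.

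**Figure D5:**
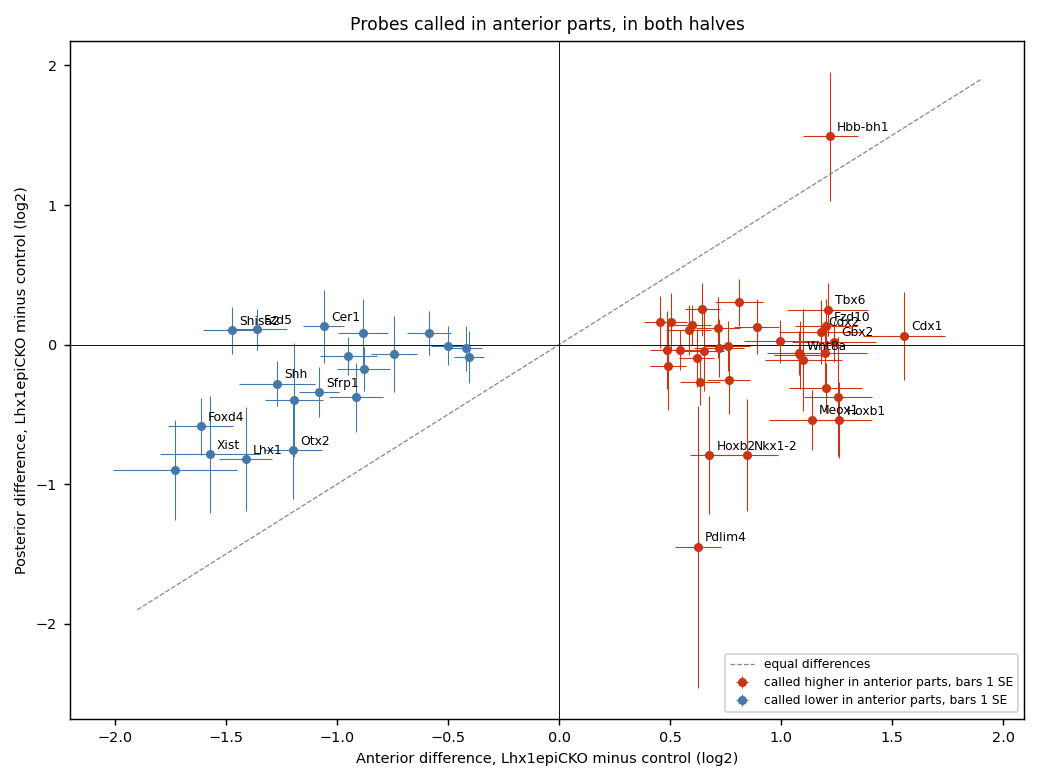
Genotype difference in posterior parts (y axis, log2) against that in anterior parts (x axis, log2) for the 55 probes called in anterior parts and kept in posterior parts, with bars of 1 moderated SE and a dashed line where both are equal. Red points (called higher) lie on both sides of 0 in posterior parts, from Pdlim4 at -1.45 to Hbb-bh1 at 1.49. The Pdlim4 value rests on posterior Lhx1epiCKO 3, at 7.19, against 11.72 and 11.86 on Lhx1epiCKO 1 and 2. No posterior difference passed the test.

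The difference between the anterior and posterior genotype effects, tested over all 12 arrays, gave 0 calls (0%) among 17041 probes, with 581 (3.41%) at an unadjusted p under 0.05. The smallest adjusted p was 0.0561, for Shisa2 (-1.58) and Fzd5 (-1.47). Next among the falls were a second Shisa2 probe (-0.74, 0.442), Cadps2 (-0.87, 0.69) and Srd5a2 (-0.69, 0.69). Among the rises with the smallest p were Wnt8a (1.14), Hoxb1 (1.80), Gna14 (0.90) and Meox1 (1.68), all at an adjusted p of 0.442. No called gene was therefore shown to respond differently in the 2 regions at this threshold.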

How the data were processed

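RNA of 6 anterior samples was measured on Illumina bead arrays with biotin-labelled RNA. The values deposited by the authors are log2 intensities after their normalization. Per the submitters' processing notes, GenomeStudio and limma were used; background correction and normalization method are not given in the sources used here. A detection p-value per probe and array was deposited by the authors beside the log2 values. A second deposited table held the same log2 values, to within 5e-09. Depth does not apply to arrays, and precision is limited by their number, 3 per group.

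Of 30344 probes, 15961 under 10798 gene names, detected at p under 0.05 on 3 or more of the 6, were fitted in R 4.3.3 with limma 3.58.1 (lmFit, eBayes, two-sided, no covariate), with 4 residual and 5.94 prior degrees of freedom. Calls needed a Benjamini-Hochberg adjusted p under 0.05 over all probes kept. Posterior arrays were fitted alike, and the difference of effects on all 12 arrays. Names came from the file and platform annotation; 324 probes with differing names were not named. Members and the 45 gene lists were chosen with earlier results of these data known, and lists are described by counts and medians at the brightest probe per gene. Named genes were Lhx1, the 20 largest rises and falls of called genes, up to 4 members per list, 4 probes just outside the threshold and 5 per direction for the difference of effects. A fold against a group not above background is a lower bound of the measured means. Alternatives were other filters, quantile normalization, an offset of 16, array weights, a trended and robust prior, gene means, a replicate block and leaving out each array. The fit was tested on simulated data. Some genes that the naming rule picks are not reported here.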

Additional observations from a re-analysis of the deposited data

Results flagged for a closer look

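Meox1, a homeobox gene of the somites, went opposite ways in the 2 regions: every anterior Lhx1epiCKO array was above every anterior control, with a difference of 1.14, and every posterior Lhx1epiCKO array was below every posterior control, with a difference of -0.54. The difference of the effects was 1.68 on the log2 scale, with an adjusted p of 0.442 over all probes in limma, so it did not pass the test.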

How the results depend on the processing

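All 57 probes called in anterior parts kept their direction under all 17 alternatives, but most lost their call under at least 1. The number called was 12 when all 12 arrays were fitted together, where Lhx1 (adjusted p = 0.344), Cer1 (0.163), Otx2 (0.547) and Hbb-bh1 (0.999953) lost their calls in limma, 210 with array weights and 44 to 71 under the other settings that kept all arrays. Leaving out 1 array gave 23 to 54 calls, with 23 without control 2, 25 without Lhx1epiCKO 1 and 37 without Lhx1epiCKO 2. Across all 17 alternatives, 6 of the 57 probes were called every time, 1 each of Sfrp1, Shisa2, Foxd4, Fzd5, Fzd10 and Wnt8a. With a replicate block 71 probes were called, 52 of them among the 57. Deviations from group means correlated at 0.252, 0.047 and 0.019 between arrays of the same number, so the numbers were not taken to pair the samples; array 2 of Lhx1epiCKO had a higher r, 0.084, with control 3. For the difference of the regions' effects, array weights gave 1 call, a trended and robust prior 2, and leaving out 1 array 0 to 3, with 1 without anterior control 3 and 3 without posterior Lhx1epiCKO 3; the other settings gave 0, as did all 10 for posterior parts. The median of 19 of the 45 lists changed sign under at least 1 alternative. Low signal limits the Hox genes, 13 of 38 above background, and the anterior neural plate genes, with 12 of 27 not above it. The cause of these changes was not tested.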

Other observations

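Of 10717 genes with a chromosome, taken at their brightest probe, 47 (0.439%) were called in anterior parts. On chromosome 18, singled out after its values were seen, 6 of 268 measured genes (2.24%) were called, all higher in Lhx1epiCKO: Wnt8a, Cdx1, Tshz1, Apcdd1, Zadh2 and Mcc. On chromosome 11, which carries Lhx1, 6 of 888 (0.676%) were called, and on chromosome 5, 5 of 699 (0.715%). Whether these shares differ from that over all chromosomes was not tested.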
